A study of Mus musculus with 4 samples.

Results

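The MHC class II genes Cd74, H2-Aa, H2-Ab1, H2-Eb1, H2-DMa, H2-DMb1 and Ciita were followed across cell types of the mouse kidney. They are 7 of the 32285 genes listed in each library, and each was taken by its symbol, which occurs once. The data are droplet-based scRNA-Seq of whole kidneys, 1 library per condition. All mice were male C3H/HeJ, 10 weeks old when the diets began and 18 weeks old at harvest, after 8 weeks of ND or of HFD with 60% of calories from fat. The WT-ND and WT-HFD libraries come from wild-type mice, and the SP-ND and SP-HFD libraries from Sweet Pee (SP) mice, which carry a missense mutation of Slc5a2, the gene encoding SGLT2, in all of their cells. The number of mice in each library is not given, and the sample labels of both ND libraries name no diet, which comes from the design of the series. With 1 library per condition there was no replicate error and no test between conditions, and every interval below covers counting error only.

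MHC class II molecules present peptides from taken-up proteins to CD4+ T cells. They are carried at high levels by macrophages, dendritic cells and B cells, and some endothelial and epithelial cells can make them as well. H2-Aa and H2-Ab1 encode the alpha and beta chains of I-A, and H2-Eb1 encodes the beta chain of I-E. Cd74, the invariant chain, holds new class II molecules and guides them to the endosome, where H2-DMa and H2-DMb1, the chains of H2-DM, help to exchange its remnant for a peptide. Ciita is the transactivator that switches the whole group on.

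In the mm10 build (GENCODE vM21), H2-DMa lies at chr17:34119541-34139101, H2-DMb1 at chr17:34153072-34160230, H2-Ab1 at chr17:34257689-34269419 and H2-Eb1 at chr17:34305867-34316674, all on the plus strand of the MHC. H2-Aa lies on the minus strand at chr17:34282744-34287823. Ciita is on another chromosome, at chr16:10480059-10528418 on the plus strand. All 7 are annotated as protein-coding. Class II promoters are known for an X box and a Y box at a near-fixed spacing, through which RFX and NF-Y recruit CIITA. The bases before the start of H2-Aa and H2-Eb1, and of H2-Ob, a chain of the H2-DM partner H2-DO and not one of the 7, are shown because they carry both letters in that order. They are RefSeq sequences of GRCm38.p6, a C57BL/6J reference and not the C3H/HeJ mice of the study, printed 5′ to 3′ on the strand of the gene. H2-Aa is chr17:34287824-34288073 (minus strand), H2-Eb1 is chr17:34305617-34305866 (plus strand) and H2-Ob is chr17:34238655-34238902 (plus strand). Capitals mark matches to the X1-like letters CTNGNAAC and to the Y core ATTGG, searched on both strands.
H2-Aa: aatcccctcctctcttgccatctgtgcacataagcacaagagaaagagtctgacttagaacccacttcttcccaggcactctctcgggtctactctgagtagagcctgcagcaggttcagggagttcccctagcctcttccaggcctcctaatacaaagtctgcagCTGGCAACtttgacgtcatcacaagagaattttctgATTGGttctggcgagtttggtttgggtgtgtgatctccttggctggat
H2-Eb1: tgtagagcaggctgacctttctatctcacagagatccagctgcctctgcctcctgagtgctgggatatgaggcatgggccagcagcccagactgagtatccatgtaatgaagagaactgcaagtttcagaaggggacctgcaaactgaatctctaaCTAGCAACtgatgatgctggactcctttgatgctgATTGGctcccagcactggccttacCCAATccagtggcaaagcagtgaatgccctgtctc
H2-Ob: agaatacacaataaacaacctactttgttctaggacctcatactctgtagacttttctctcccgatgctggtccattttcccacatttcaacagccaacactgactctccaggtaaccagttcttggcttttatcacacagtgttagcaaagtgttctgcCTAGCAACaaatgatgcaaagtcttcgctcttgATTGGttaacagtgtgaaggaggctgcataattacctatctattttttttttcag
The X1-like match begins 84 bases before the RefSeq gene start in H2-Aa, 94 in H2-Eb1 and 90 in H2-Ob. The Y core begins 36, 35 and 33 bases after it. The last 2 bases before the RefSeq start of H2-Ob lie inside the GENCODE gene and are not printed. H2-Eb1 holds a second, reverse-strand match to the Y core. H2-DMb1 holds both, also 36 bases apart, within the 119 bases of its window that lie inside the GENCODE gene. Over 32851 windows of 250 bases, 33.8% hold ATTGG, 10.9% hold CTNGNAAC and 20 windows (0.0609%) hold both with starts 30 to 40 bases apart in this order. The letters and the spacing were chosen after these sequences had been seen, so the matches are a description and no test. Windows were found for 4 of the 7 genes. H2-DMa, the member among these 4 not named above, had 0 X1-like matches in its windows. All 250 bases of each lie inside the GENCODE gene.

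Cells were placed in classes by UMIs of marker genes that do not include the 7. After limits on detected genes and mitochondrial UMIs and removal of doublets, 6389 to 9924 cells per library remained, from 90728590 to 115117649 UMIs per library before filtering. Macrophages numbered 199, 187, 177 and 282 in the order WT-ND, WT-HFD, SP-ND, SP-HFD, which is kept in all lists of values below. B cells numbered 43, 48, 36 and 53, endothelial cells 765, 648, 786 and 981, and proximal tubule (PT) cells 1842, 1233, 1067 and 807. C1qa, a macrophage gene left out of the markers, reached 2910, 3102, 3829 and 4256 CPM in the macrophages against 2.72 to 8.21 CPM in the other kept cells. Kap, an abundant PT transcript, stood at 8115, 8699, 769 and 1259 CPM outside the PT class, higher in both WT libraries, and the part of free PT RNA in the results was not tested. The study describes a SoupX correction for free RNA, and the sources used here do not say whether the deposited whole-number counts had passed it. Libraries shared 9 to 36 kept barcodes in any pairing.

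Class II UMIs lay mainly in myeloid cells. Macrophages held 56.0%, 50.1%, 60.3% and 61.7% of all class II UMIs in the kept cells of a library, although they were a small minority of the cells. Dendritic cells, 21 to 40 per library, added 11.2%, 16.4%, 12.3% and 14.9%. B cells held 1.92% to 2.06%, endothelial cells 0.579% to 1.72% and PT cells 0.8001% to 1.55%. Most of the remainder lay in cells with markers of several classes or of none, which are not described further.

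**Figure D1:**
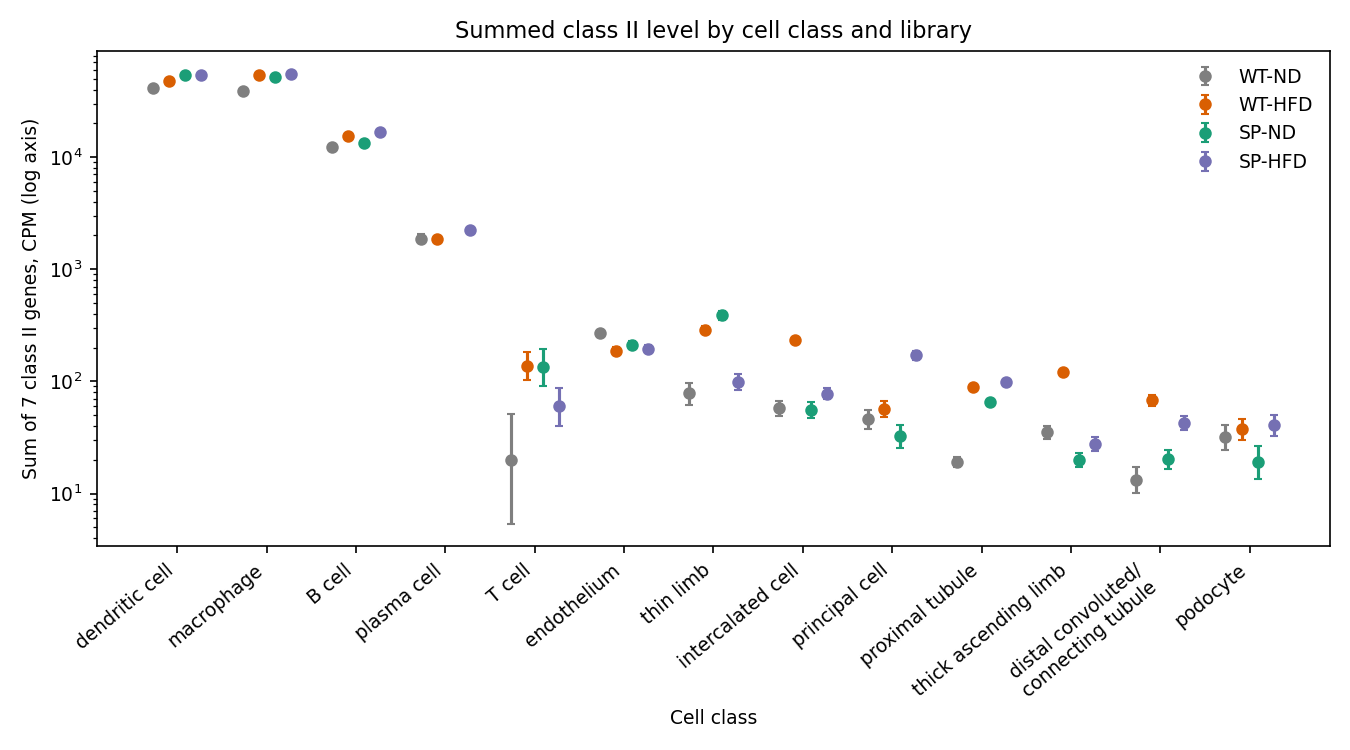
Summed CPM of the 7 class II genes by cell class (log10 axis), 1 point per library with its exact Poisson 95% interval. Macrophages and dendritic cells lie at 38497 CPM or above in all 4 libraries, B cells at 12287 to 16746, endothelium at 186 to 268 and proximal tubule at 19.3 to 98.3.

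Levels are given in CPM, the UMIs of a gene per 1000000 UMIs pooled over the cells of a class in a library. Each molecule gives 1 UMI from its 3′ end, so genes can be compared without a correction for length. In macrophages Cd74 stood at 18906, 26977, 25913 and 27920 CPM, and in every library it was the most abundant of the 7. H2-Aa stood at 7657, 10081, 10210 and 10594 CPM and H2-Eb1 at 6353, 8698, 8524 and 9061 CPM. H2-Ab1 stood at 4697, 6934, 6087 and 6721 CPM. For these 4 genes the WT-ND library was the lowest, and the other 3 lay closer to each other than to it. The chains of H2-DM were far less abundant. H2-DMa stood at 436, 660, 499 and 586 CPM and H2-DMb1 at 302, 544, 400 and 415 CPM, each lowest in WT-ND and highest in WT-HFD. Ciita stood at 145, 148, 152 and 139 CPM, and its Poisson intervals overlapped in all 4 libraries.

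Between macrophages of the libraries, the members moved by less than 2-fold. The summed level was 38497 (37987 to 39011), 54043 (53583 to 54505), 51784 (51250 to 52321) and 55436 (55011 to 55863) CPM. HFD gave the sum a log2 ratio of 0.49 (0.47 to 0.51) in WT mice and 0.10 (0.08 to 0.12) in SP mice. SP against WT gave 0.43 (0.40 to 0.45) on ND and 0.04 (0.02 to 0.05) on HFD. Each library enters 2 of these 4 ratios, so they are not independent, and the low WT-ND level is in both of the larger ones. At 2-fold or more, 0 of the 7 genes were higher and 0 lower in any of the 4 contrasts. Among all genes with at least 100 CPM in either library, 2.08% were higher and 3.33% lower in WT-HFD against WT-ND, 0.686% and 1.11% in SP-HFD against SP-ND, 0.505% and 2.7% in SP-ND against WT-ND, and 0.437% and 0.874% in SP-HFD against WT-HFD. The median log2 ratio of the 7 genes was 0.51, 0.09, 0.40 and −0.04 in these contrasts, beside 0.10, 0.04, 0.06 and −0.01 for all those genes.

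H2-DMb1 had the widest range of the 7 in macrophages. Its log2 ratio was 0.85 (0.60 to 1.11) for HFD in WT and 0.05 (−0.16 to 0.27) for HFD in SP. SP against WT gave 0.40 (0.12 to 0.69) on ND and −0.39 (−0.57 to −0.21) on HFD. Its near-identical neighbour H2-DMb2 was counted apart at 24.5 to 57.9 CPM, and reads that fit both genes may be assigned to neither. Ciita had log2 ratios of 0.03, −0.13, 0.07 and −0.10, with 0 inside all 4 intervals.

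The difference between WT-ND and the other libraries was also seen in the typical cell. The median macrophage had 419, 581, 572 and 587 class II UMIs per 10000 UMIs. Macrophages with 3 or more UMIs of the complement genes C1qa, C1qb and C1qc had 43771, 58490, 55089 and 57381 CPM of class II, and the 25 to 38 macrophages per library without any had 17752, 33138, 34090 and 38561 CPM. WT-ND was lowest in both sets. Its macrophages were also the shallowest, with a median of 2472 UMIs per cell against 4685, 3513 and 3969.5, and the part of depth in the result was not tested. C1qa itself had log2 ratios of 0.09 and 0.15 for HFD in WT and SP, and of 0.40 and 0.46 for SP against WT on ND and HFD, so its order across libraries was not that of the class II sum. B2m, the light chain of MHC class I, had ratios of 0.21, 0.03, 0.29 and 0.11 in the 4 contrasts.

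**Figure D2:**
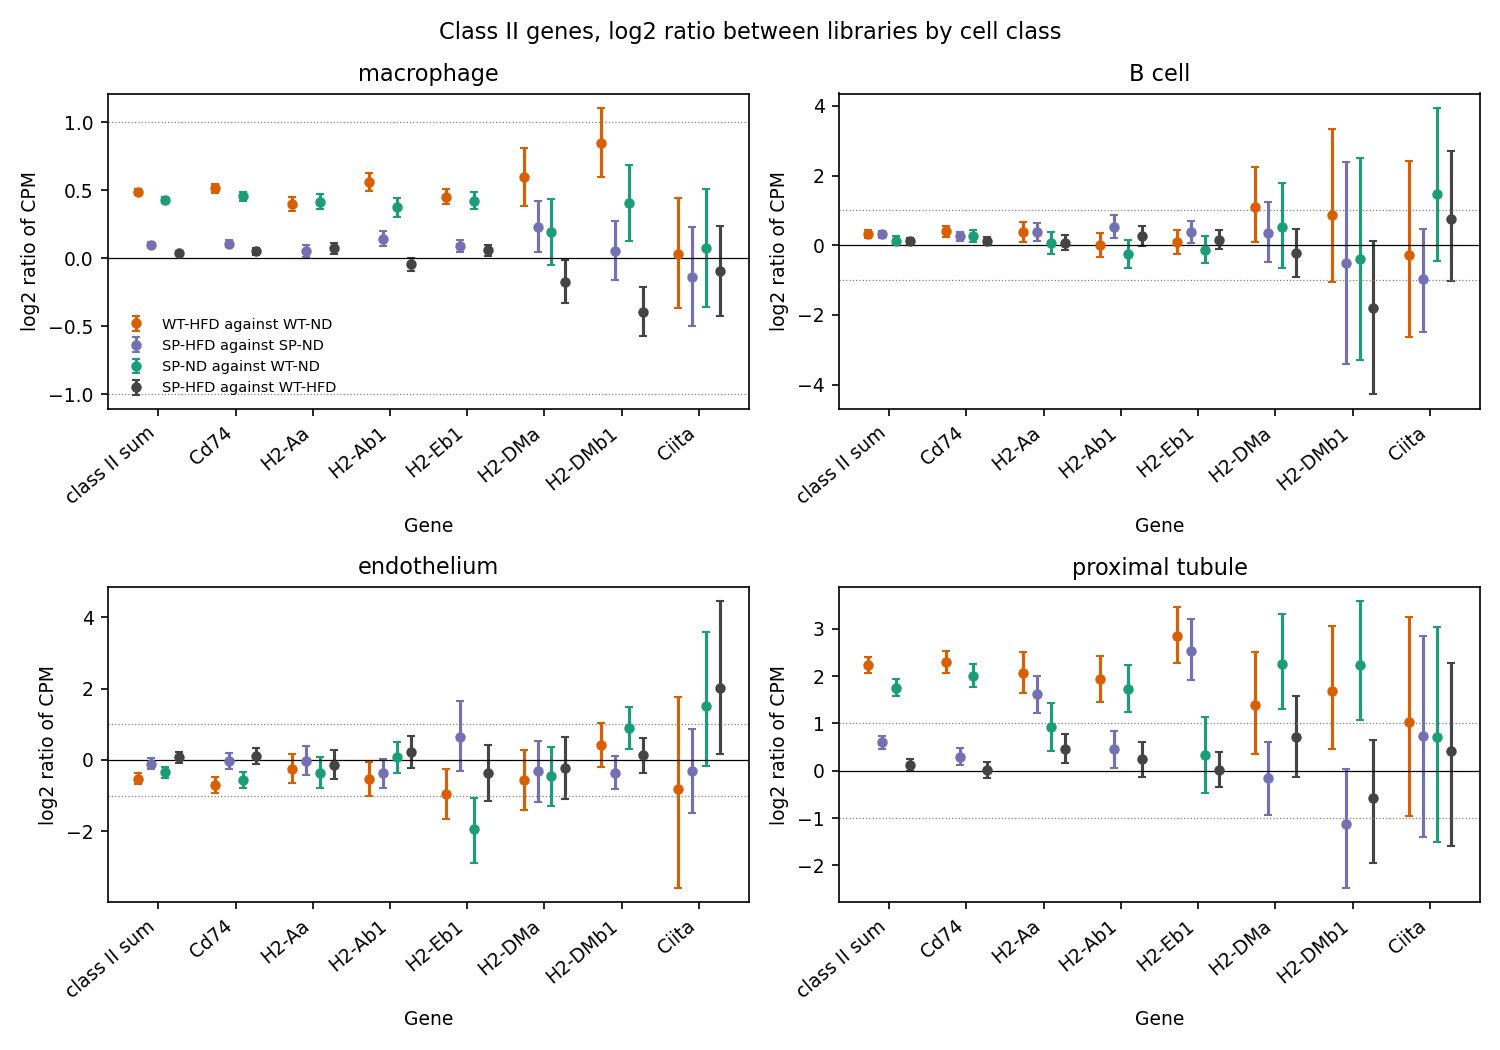
Log2 ratio of CPM for each class II gene and the sum in the 4 contrasts, for macrophages, B cells, endothelium and proximal tubule, with exact conditional binomial 95% intervals for counting error. In macrophages all points lie between −0.39 and 0.85, while in proximal tubule the sum reaches 2.22 in WT-HFD against WT-ND and 0.13 in SP-HFD against WT-HFD.

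A fixed list held 27 symbols of other class II pathway genes, of which 24 were found. Marchf1 is a second symbol of March1, which was found. H2-Ea and H2-Ea-ps were not found, so the alpha chain of I-E was not counted. In macrophages 8 or 9 of the genes found reached 100 CPM, depending on the contrast. Ctss, the cathepsin that trims Cd74, stood at 1304, 1443, 1755 and 1586 CPM. Ifi30, the thiol reductase of the endosome, stood at 302, 542, 395 and 539 CPM, again lowest in WT-ND. Not all of the list had this order. Ctsl stood at 143, 133, 144 and 153 CPM and Lgmn at 325, 305, 331 and 358 CPM, both lowest in WT-HFD.

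B cells carried class II at a lower level than macrophages, with more of it in Cd74. Cd74 stood at 6765, 8951, 8105 and 9688 CPM in the B cells, and H2-Aa at 2117, 2760, 2220 and 2904 CPM. H2-Ab1 stood at 1565, 1575, 1318 and 1896 CPM and H2-Eb1 at 1595, 1697, 1457 and 1888 CPM. SP-HFD was the highest library for all 4 genes. H2-DMa stood at 153, 329, 220 and 282 CPM, and H2-DMb1 at 46.0, 84.1, 34.7 and 24.2 CPM from 3 to 11 UMIs. Ciita stood at 46.0, 38.2, 127 and 64.5 CPM, also from 3 to 11 UMIs, and differences of this size were not detectable at this depth. C1qa had 0 UMIs in the B cells of all 4 libraries.

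The summed level in B cells was 12287 (11451 to 13168), 15434 (14768 to 16122), 13482 (12719 to 14278) and 16746 (16034 to 17483) CPM. HFD gave log2 ratios of 0.33 (0.21 to 0.45) in WT and 0.31 (0.21 to 0.42) in SP, and SP against WT gave 0.13 (0.00 to 0.27) on ND and 0.12 (0.03 to 0.21) on HFD. Both HFD libraries were thus above both ND libraries. With classes set by clusters, the ratio of SP-HFD against WT-HFD turned to −0.15. H2-DMa, with a log2 ratio of 1.10 (0.08 to 2.26) for HFD in WT, and Ciita, with 1.47 (−0.45 to 3.95) in SP-ND against WT-ND, were the members past 2-fold among those at 100 CPM. Below that level, H2-DMb1 had −1.80 (−4.28 to 0.12) in SP-HFD against WT-HFD, from 3 and 11 UMIs. With 36 to 53 cells per library, such ratios were common in B cells. At 2-fold, 9% of genes at 100 CPM were higher and 15.5% lower for HFD in WT, and 5.84% and 15.9% for HFD in SP. SP against WT gave 14.3% and 12% on ND and 3.53% and 9.37% on HFD. Of the other pathway genes, H2-Ob stood at 291, 229, 266 and 121 CPM in B cells against 16.4 to 26.5 CPM in macrophages, and H2-DMb2 at 127 to 214 CPM. Ctss was lower in B cells than in macrophages, at 138 to 258 CPM.

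The composition of the class II UMIs differed between cell classes. In macrophages Cd74 made up 49.1% to 50.4% of them, H2-Aa 18.7% to 19.9%, H2-Eb1 16.1% to 16.5% and H2-Ab1 11.8% to 12.8%. H2-DMa made up 0.963% to 1.22%, H2-DMb1 0.748% to 1.01% and Ciita 0.250% to 0.376%. Dendritic cells had 45.9% to 48.1% in Cd74 and 16.2% to 17.6% in H2-Eb1, close to macrophages. In B cells Cd74 made up 55.1% to 60.1% and H2-DMb1 0.145% to 0.545%, and H2-Eb1 10.8% to 12.98%. Endothelial cells, taken as 1 class, departed further. There H2-Eb1 made up 7.01%, 5.25%, 2.32% and 3.88%, and H2-DMb1 5.67%, 10.8%, 13.3% and 11.2%.

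**Figure D3:**
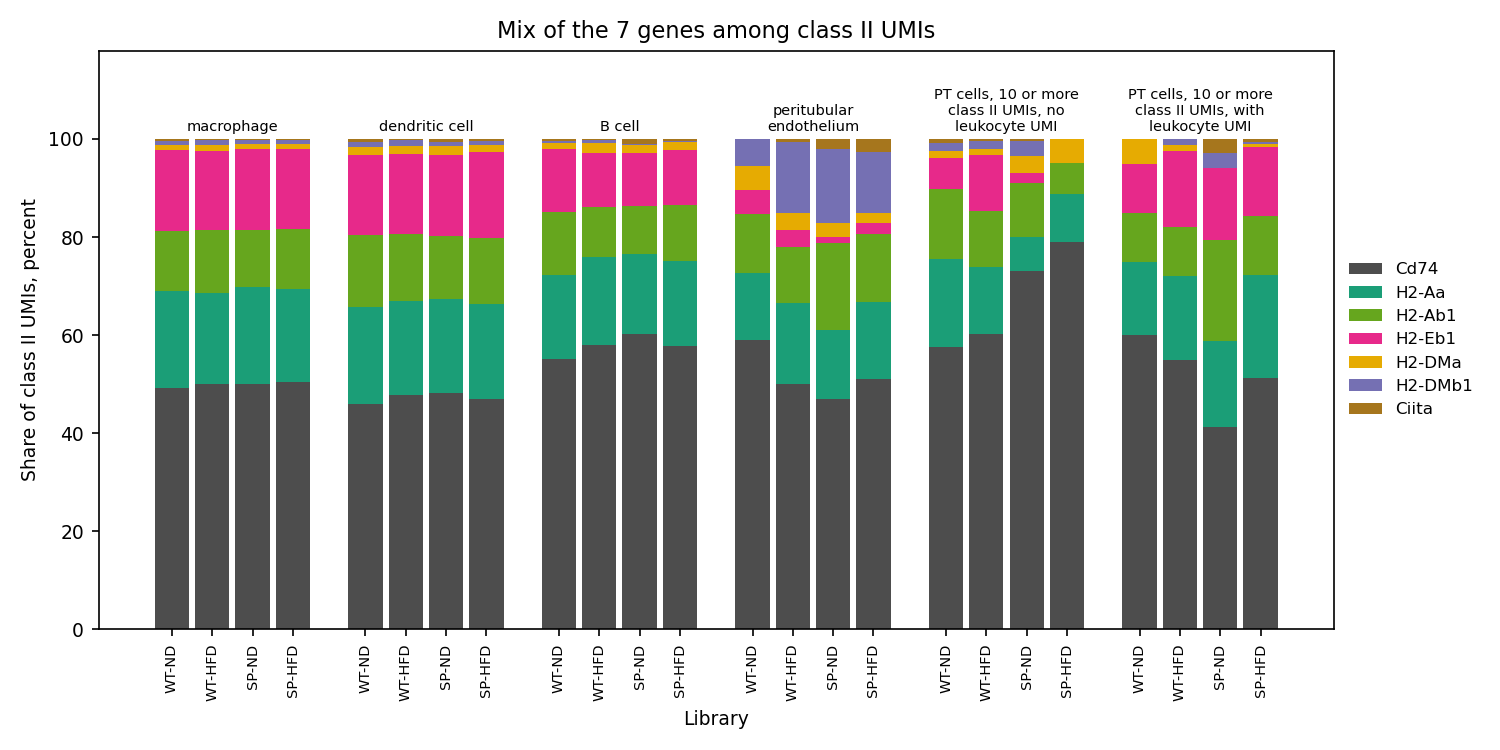
Share of class II UMIs (percent) in each of the 7 genes, by library, in macrophages, dendritic cells, B cells, peritubular endothelium and the proximal tubule (PT) cells of 10 or more class II UMIs, the last split by whether they held a leukocyte UMI. In peritubular endothelium H2-DMb1 takes 5.58% to 14.95% against 0.748% to 1.01% in macrophages.

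Taken as 1 class, endothelial cells held a low level of class II, with more class II UMIs per C1qa UMI than macrophages. Cd74 stood at 150, 92.8, 101.6 and 100.1 CPM, H2-Aa at 38.8, 32.7, 30.4 and 29.9 CPM and H2-Ab1 at 32.0, 22.3, 33.7 and 25.9 CPM. H2-Eb1 stood at 18.8, 9.77, 4.90 and 7.60 CPM, and H2-DMa at 11.2, 7.63, 8.17 and 6.55 CPM. Unlike these, H2-DMb1 was lowest in WT-ND, at 15.2, 20.1, 28.1 and 22.0 CPM. Ciita was at 1.60, 0.916, 4.57 and 3.67 CPM, from 3 to 14 UMIs, at least 2-fold higher in SP than in WT on both diets. The share of all genes past 2-fold at such low counts was not computed for endothelium.

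RNA released by macrophages would carry class II and C1qa UMIs in the ratio that macrophages have, which was 13.2, 17.4, 13.5 and 13.03 class II UMIs per C1qa UMI. The endothelial cells held 7, 5, 1 and 4 C1qa UMIs beside 670, 610, 647 and 747 class II UMIs, or 95.7 (46.2 to 239), 122 (52.0 to 377), 647 (116 to 25594) and 187 (72.6 to 687) per C1qa UMI. That was 7.23, 7.003, 47.8 and 14.3 times the macrophage ratio. At the macrophage ratio, the C1qa UMIs would bring 13.8%, 14.3%, 2.09% and 6.98% of the endothelial class II UMIs. C1qa measures macrophage RNA only: dendritic and B cells had 0 C1qa UMIs in all 4 libraries, so class II RNA from them leaves no trace in this ratio. The ratio of all kept cells, which includes dendritic and B cells, served as a second yardstick. Against it the endothelial ratio was 4.49 (2.17 to 11.2), 4.08 (1.74 to 12.6), 30.2 (5.40 to 1194) and 9.32 (3.63 to 34.3) times as high. T cells, which should hold little class II, also bear on class II RNA from other cells. After each cell was thinned to 1000 UMIs, Cd74 was found in 6.52%, 5.93%, 6.68% and 7.23% of endothelial cells (12.3% to 15.9% before thinning) and in 0%, 4.26%, 3.70% and 1.32% of T cells (1.06% to 9.47% before). The Clopper-Pearson intervals of the 2 classes overlapped in WT-HFD and SP-ND. The median depth was 2232 to 3820 UMIs in endothelial cells and 2026 to 3328 in T cells.

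**Figure D4:**
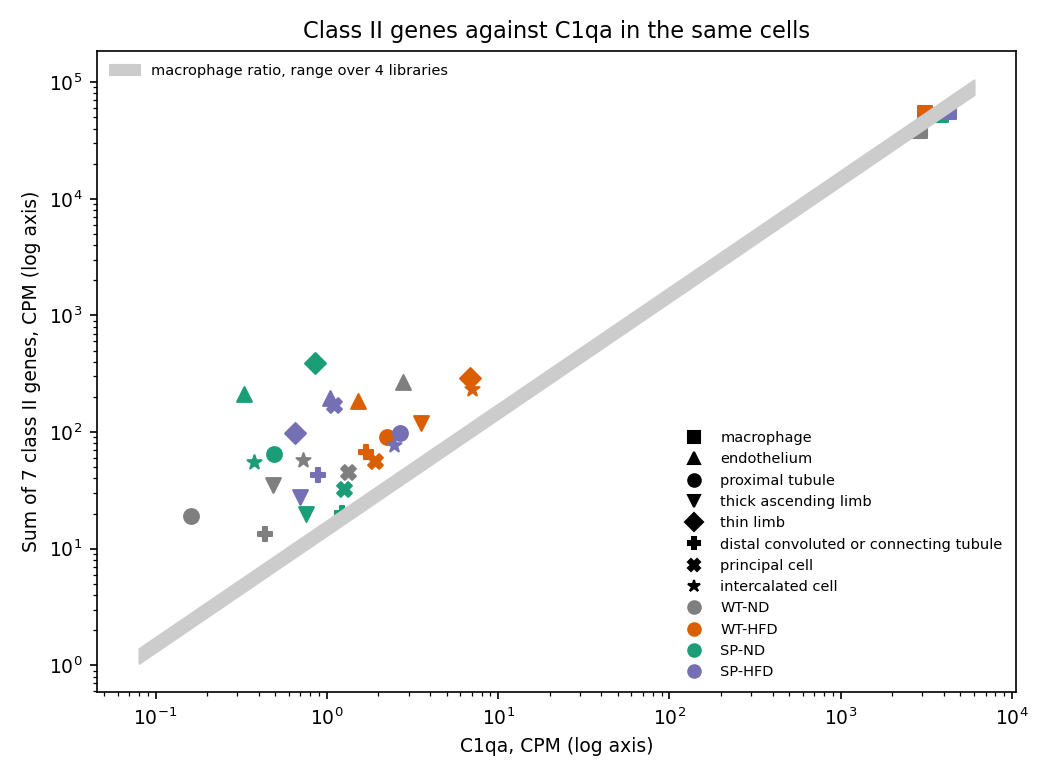
Summed CPM of the 7 class II genes against CPM of C1qa (both log10 axes), 1 point per class (symbol) and library (colour), without intervals. The grey band is the ratio of the 2 in macrophages, from lowest to highest library, and endothelium lies above it by 7.003 to 47.8 times and proximal tubule by 2.29 to 9.76 times the ratio of the same library.

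Class II was higher in peritubular than in glomerular or arterial cells. Peritubular cells were set apart by Plvap and Igfbp3, and numbered 255, 242, 411 and 473. Their class II sum was 704, 388, 354 and 325 CPM, against 83.8, 66.8, 46.3 and 63.5 CPM in glomerular cells (Ehd3, Sost, Plat) and 94.6, 66.7, 42.6 and 55.6 CPM in arterial cells (Sox17, Gja5, Cxcl12). In every library the peritubular intervals lay above those of glomerular and arterial cells. In WT-ND, 1 peritubular cell held 193 of the 412 class II UMIs of its group. The endothelial cells placed in none of these groups, at most 156 in a library, held 367, 230, 305 and 234 CPM, and in SP-ND their interval (259 to 356) overlapped the peritubular one (321 to 389). Of the peritubular cells 33.4% to 38.7% held a class II UMI, and they held 1, 2, 1 and 1 C1qa UMIs. In them Cd74 stood at 415, 194, 166 and 166 CPM, H2-Eb1 at 34.2, 13.1, 4.13 and 7.29 CPM and H2-DMb1 at 39.3, 56.3, 52.9 and 40.4 CPM. H2-DMb1 was 5.58%, 14.5%, 14.95% and 12.4% of their class II UMIs. Ciita had 0, 2, 9 and 13 UMIs in these cells, and a count of 0 allows up to 6.31 CPM (exact Poisson) in WT-ND. Glomerular cells held 6, 2, 0 and 3 C1qa UMIs. In WT-ND, WT-HFD and SP-HFD that was 18.5, 48.5 and 28 class II UMIs per C1qa UMI. Peritubular cells had 412, 193 and 490 in these libraries, further from the macrophage ratio. H2-Eb1 made up 17.1%, 11.3%, 9.52% and 14.3% of glomerular class II UMIs, against 4.85%, 3.37%, 1.17% and 2.24% in peritubular cells. In WT-ND, 2 of the 352 glomerular cells held 10 or more class II UMIs, and 1 held 68 of the 111. Without these 2 cells, 28 UMIs remained. The 2 WT-ND endothelial cells of this kind with UMIs of leukocyte genes held 6 C1qa and 14 H2-Eb1 UMIs. The WT-ND glomerular ratio and H2-Eb1 share thus rest on few cells.

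Across conditions the endothelial sum was 268 (248 to 289), 186 (172 to 202), 211 (195 to 228) and 196 (182 to 210) CPM, highest in WT-ND. HFD gave log2 ratios of −0.53 (−0.69 to −0.37) in WT and −0.11 (−0.27 to 0.04) in SP, and SP against WT gave −0.34 (−0.50 to −0.18) on ND and 0.07 (−0.08 to 0.23) on HFD. Cd74, the only member at 100 CPM in any library, had −0.70, −0.02, −0.57 and 0.11. It was past 2-fold in none of the 4 contrasts, in which 0.798%, 0.4%, 0.588% and 0.117% of genes were higher and 1.48%, 1.2%, 0.999% and 0.117% lower. Below that level, H2-Eb1 had −1.94 (−2.89 to −1.08) and H2-DMb1 0.89 (0.32 to 1.48) in SP-ND against WT-ND. Ciita, from few UMIs, was at least 2-fold higher in SP than in WT on both diets. In peritubular cells alone, SP-ND against WT-ND gave −3.05 (−4.82 to −1.59) for H2-Eb1 and 0.43 (−0.28 to 1.18) for H2-DMb1. Peritubular cells were 255 of 765, 242 of 648, 411 of 786 and 473 of 981 endothelial cells. The part of this share in the pooled ratios was not tested. Of the WT-ND endothelial cells with 10 or more class II UMIs, 6 held 23 H2-Eb1 UMIs and the other 2 held 14. In SP-ND, 9 such cells held 3 and the other 4 held 0. The pooled H2-Eb1 ratio thus rests largely on few WT-ND cells. The high WT-ND sum rests in part on 1 peritubular cell, which held 193 of the 670 UMIs. Without cells of 10 or more class II UMIs the sum was 132, 99.9, 154 and 136 CPM, and the SP-ND against WT-ND ratio turned to 0.23. The SP-HFD against WT-HFD ratio turned to −1.09 with classes set by clusters and to −0.69 with doublets kept. The WT-HFD against WT-ND ratio turned to 0.56 with classes set by clusters and to 0.40 with doublets kept. In peritubular cells alone it was −0.86, and without those cells of 10 or more UMIs the peritubular sum was 348, 225, 290 and 228 CPM.

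Of the pathway genes in endothelium, Ctsl, a lysosomal cathepsin, stood at 378, 454, 327 and 472 CPM, while Ctss stood at 0.8003 to 4.58 CPM. Cd40, a receptor for T cell help, stood at 31.4 to 44.5 CPM against 6.14 to 10.2 CPM in macrophages. Only Ctsl reached 100 CPM, and it was past 2-fold in none of the 4 contrasts. Among the 19 or 20 of the list with more than 3 UMIs in both libraries together, Ctss was higher and H2-DMb2 lower for HFD in WT and for SP on ND, 0 of 19 were past 2-fold for HFD in SP, and March1, a ubiquitin ligase of class II, was higher for SP on HFD from 1 and 3 UMIs. H2-DMb2 had 4 to 10 UMIs per library and Ctss 2 to 15. The share of all genes past 2-fold at such counts was not computed for endothelium, so these calls cannot be set against it. The class I genes were far higher than class II, with B2m at 1903, 2155, 1900 and 2359 CPM.

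Proximal tubule cells held few class II UMIs, and most of them lay in a small number of cells. Cd74 stood at 10.6, 52.1, 42.9 and 52.6 CPM, H2-Aa at 3.13, 13.03, 5.90 and 18.0 CPM and H2-Ab1 at 2.64, 10.1, 8.72 and 12.0 CPM. H2-Eb1 stood at 1.56, 11.2, 1.97 and 11.4 CPM, near-equal in the 2 HFD libraries and low in both ND libraries. In SP-HFD the H2-Eb1 and H2-Aa values rest largely on 4 cells, described below, that held UMIs of leukocyte genes. These 4 cells held 81 H2-Eb1 and 121 H2-Aa UMIs. In WT-HFD, 32 such cells held 98 H2-Eb1 UMIs. H2-DMa stood at 0.647, 1.69, 3.09 and 2.79 CPM, H2-DMb1 at 0.432, 1.38, 2.04 and 0.931 CPM, and Ciita at 0.216 to 0.582 CPM from 4 to 7 UMIs. WT-ND was the lowest library for each of the 7.

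The PT sum was 19.3 (17.3 to 21.4), 89.97 (85.4 to 94.7), 64.9 (60.8 to 69.3) and 98.3 (91.8 to 105) CPM. HFD gave a log2 ratio of 2.22 (2.06 to 2.40) in WT and 0.60 (0.46 to 0.73) in SP, and SP against WT gave 1.75 (1.58 to 1.93) on ND and 0.13 (0.00 to 0.25) on HFD. No member reached 100 CPM. Among genes with more than 3 UMIs in both libraries together, 7 of 7 members were 2-fold higher for HFD in WT (13.3% of all genes higher, 3.72% lower), 2 higher and 1 lower for HFD in SP (9.99% and 5.48%), 4 higher for SP on ND (6.63% and 4.01%), and 0 for SP on HFD (3.57% and 5.59%). The 2 higher for HFD in SP were H2-Aa and H2-Eb1, whose SP-HFD values rest largely on 4 cells with UMIs of leukocyte genes. Among genes at 100 CPM the shares of all genes were 1.71% and 1.8%, 4.59% and 2.13%, 0.824% and 1.01%, and 0.0915% and 0.0915%. The class I genes also differed by diet, with B2m at 125, 233, 121 and 239 CPM and H2-D1 at 66.4, 130, 55.8 and 99.5 CPM. C1qa moved with class II, with log2 ratios of 3.80 (2.14 to 6.14) for HFD in WT and 2.44 (1.18 to 3.91) in SP.

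C1qa was again the measure of macrophage RNA. PT cells held 3, 36, 7 and 23 C1qa UMIs, giving 119 (40.4 to 580), 39.9 (28.7 to 57.2), 132 (63.8 to 329) and 36.7 (24.3 to 58.3) class II UMIs per C1qa UMI. These were 8.99, 2.29, 9.76 and 2.82 times the macrophage ratio. At the macrophage ratio, 11.1%, 43.7%, 10.2% and 35.5% of the PT class II UMIs would come with the C1qa UMIs. The HFD libraries were nearer to the macrophage ratio than the ND libraries, but in WT the intervals overlapped (3.05 to 43.8 in ND and 1.65 to 3.28 in HFD). With classes set by clusters the WT order turned, to 4.92 in WT-ND and 10.6 in WT-HFD. The second yardstick was again the ratio of all kept cells, which includes dendritic and B cells. Against it the PT ratio was 5.59 (1.90 to 27.2), 1.33 (0.959 to 1.91), 6.16 (2.98 to 15.4) and 1.83 (1.21 to 2.91) times as high. In WT-HFD this interval includes 1, so the PT ratio could not be told apart from that of all kept cells. After thinning to 1000 UMIs, Cd74 was found in 0.960%, 5.68%, 2.50% and 2.30% of PT cells (5.10% to 17.1% before), and their intervals overlapped those of T cells in all 4 libraries.

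**Figure D5:**
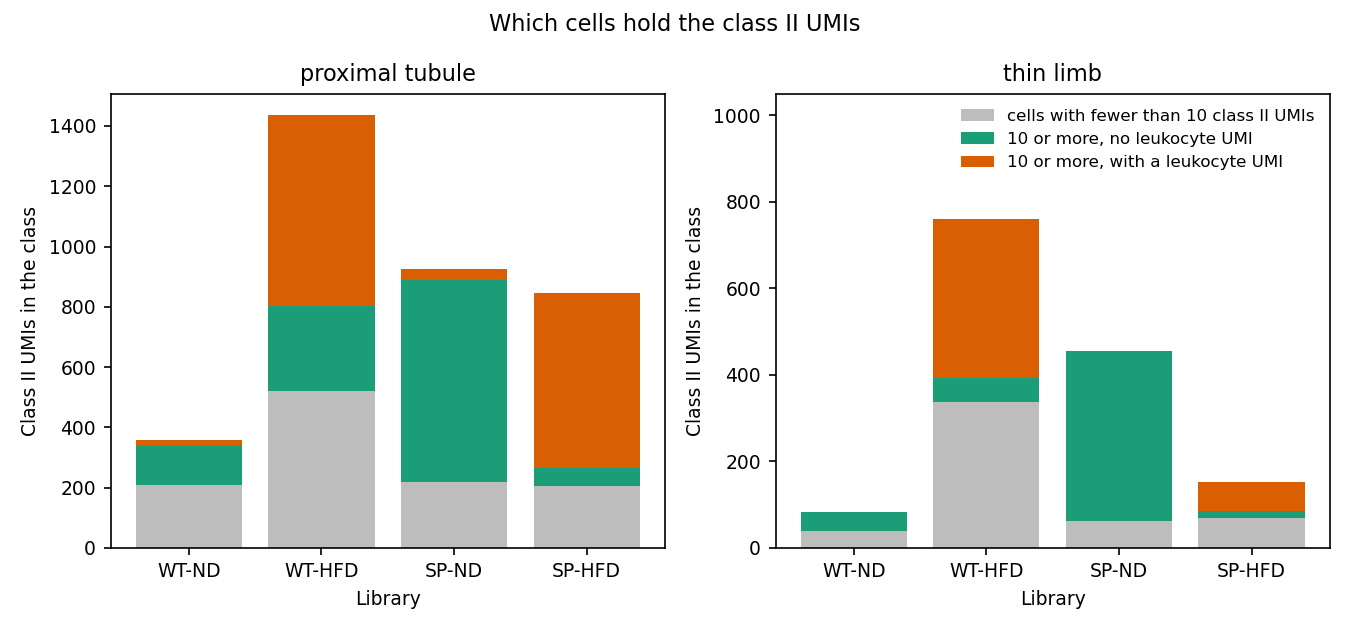
Number of class II UMIs in proximal tubule and thin limb by library, stacked by cells with fewer than 10 class II UMIs and cells with 10 or more, the latter without or with a leukocyte UMI. In proximal tubule the 8, 47, 21 and 8 cells of 10 or more hold 41.2%, 63.9%, 76.4% and 75.9% of the class II UMIs.

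PT cells with 10 or more class II UMIs numbered 8, 47, 21 and 8, and they held 41.2%, 63.9%, 76.4% and 75.9% of the class II UMIs of the class. Without them the sum was 11.4, 33.5, 15.9 and 24.2 CPM. The cells were split by UMIs of 5 leukocyte genes, Ptprc, Tyrobp, Fcer1g, Lyz2 and Cd52, which 2.34% to 10.3% of the other PT cells held. In WT-HFD, 32 of the 47 held a leukocyte UMI, and in SP-HFD 4 of the 8, where 1 cell held 300 of the 845 class II UMIs of the class. In WT-ND 1 of the 8 did, and in SP-ND 1 of the 21. The cells were chosen by their class II UMIs, so their levels are a description. In PT cells without any leukocyte UMI the ratio was 1.27 for HFD in WT and turned to −1.06 for HFD in SP and to −0.47 for SP on HFD. Under a limit of 30% mitochondrial UMIs the last 2 also turned, to −0.82 and −0.98.

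The 2 kinds of cell differed in their class II genes. In the 32 WT-HFD cells with a leukocyte UMI, H2-Eb1 made up 15.5% of 633 class II UMIs and Cd74 55.0%, and they held 22 C1qa UMIs. In the 4 SP-HFD cells of this kind, H2-Eb1 made up 14.0% of 579 UMIs and 14 C1qa UMIs were present. Both shares of H2-Eb1 were near those of macrophages. In the 20 SP-ND cells without a leukocyte UMI, Cd74 made up 73.1% of 672 UMIs, H2-Ab1 11.2%, H2-Aa 6.85% and H2-Eb1 1.93%, with 0 C1qa UMIs and 3 Ciita UMIs. The 4 SP-HFD cells of this kind had 79.0% in Cd74 and 0 H2-Eb1 UMIs among 62. The 7 WT-ND and 15 WT-HFD cells lay between, with H2-Eb1 at 6.30% of 127 UMIs and 11.6% of 284 UMIs. B2m of class I was higher than in the PT class in cells without a leukocyte UMI, and in those with one in WT-HFD, SP-ND and SP-HFD. It stood at 881, 910, 445 and 1110 CPM in the cells without a leukocyte UMI. In those with one it stood at 196, 342, 499 and 578 CPM, from 1 cell each in WT-ND and SP-ND. At 5106 UMIs the WT-ND cell is too shallow for its value to be set against the class.

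The leading other genes of these cells also differed. Among genes with at least 100 CPM in the cells, Cd52, Lyz2 and Tyrobp led in the WT-HFD cells with a leukocyte UMI, and as 3 of the 5 genes that defined the cells they are no finding. In the 20 SP-ND cells, Sparc, a matrix glycoprotein, was at 305 CPM against 5.23 CPM in PT cells with fewer than 10 class II UMIs and was found in 17 of 20. Cryab, a small heat shock protein, was at 544 against 20.4 CPM in 20 of 20, and Spp1, osteopontin, at 2084 against 164 CPM in 20 of 20. Iigp1, an interferon-induced GTPase, led by ratio but came from 2 cells. The 21 SP-ND cells of 10 or more class II UMIs held thin limb markers at 536 CPM against 24.9 in the other PT cells. Cryab belongs to the 6 thin limb markers. It had 248 UMIs in the 20 cells, beside 253 UMIs of all thin limb markers in the 21, so this value rests almost wholly on Cryab. PT markers stood at 7137 against 10374 CPM, and the PT label of these cells is less certain. The 20 cells had a median of 24482.5 UMIs against 14027 in the class, and a median doublet score of 0.380 against 0.240. The part of depth and of remaining doublets in the result was not tested.

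The other tubule classes were low and uneven. In thick ascending limb the sum was 35.1, 121, 20.0 and 27.6 CPM, in distal convoluted or connecting tubule 13.3, 67.7, 20.2 and 42.7 CPM, and in intercalated cells 57.4, 234, 55.6 and 77.8 CPM. WT-HFD was the highest in all 3, and in these classes 19 of 23 thick ascending limb cells and 19 of 25 intercalated cells with 10 or more class II UMIs in that library held a leukocyte UMI. In principal cells the sum was 45.7, 56.6, 32.5 and 172 CPM, and 3 cells held 74.9% of the 467 UMIs of SP-HFD, 1 of them 319. In thin limb it was 78.0, 290, 390 and 98.7 CPM. There 11 SP-ND cells held 86.2% of the UMIs, with Cd74 at 75.1%, H2-Eb1 at 2.04% and a leukocyte UMI in 0 of 11. Their thin limb markers summed to 2799 CPM against 12643 in the other thin limb cells, and their PT markers to 2737 against 372 CPM, so the data go against the label for these 11 cells. Their class II composition was near that of the 20 SP-ND PT cells. In WT-ND and WT-HFD, the 3 and 15 thin limb cells of this kind also held more PT than thin limb markers. PT markers summed to 3527 and 4066 CPM there, against 1787 and 3175 for thin limb markers. In SP-HFD the order was the reverse, at 1098 against 10482 CPM. The other WT-HFD thin limb cells held PT markers at 3069 CPM, against 219 to 716 in the other libraries. The thin limb label in WT-HFD is thus less certain.

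H2-DMb1 made up a larger part of class II in principal cells than in macrophages, at 32.0%, 16.8%, 40.3% and 6.21% of their class II UMIs. In principal cells it stood at 14.6, 9.49, 13.1 and 10.7 CPM, and in intercalated cells at 7.94, 14.9, 11.7 and 12.8 CPM. In thin limb it stood at 11.3, 16.4, 18.0 and 12.98 CPM, while in PT it was at most 2.04 CPM. In the principal cells of SP-ND it made up 40.3% of class II UMIs, ahead of Cd74 at 20.8%. H2-DMa, its partner chain, made up 14.3% there and H2-Aa 5.19%.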

How the data were processed

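The study's droplet-based 3′ scRNA-Seq libraries were analysed from the raw UMI counts that the authors deposited for each gene and barcode, a product of Cell Ranger that had not been normalized. The file headers name version 6.1.2 and the submitters' processing notes 2.1.1, with build mm10. The reference comes from C57BL/6J, whose H2 alleles differ from those of C3H mice, and the effect on the counts of single genes was not tested. The libraries held 93142028, 115117649, 111617794 and 90728590 UMIs over 16385, 15000, 14046 and 13229 barcodes (WT-ND, WT-HFD, SP-ND, SP-HFD).

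Cells with 200 to 5000 genes and under 50% mitochondrial UMIs were kept. Doublets were scored by simulated doublets among 50 neighbours (30 principal components, 2000 variable genes), and the highest 0.8% per 1000 cells (365 to 945 cells) were removed. A cell entered a class with 3 or more UMIs from at least 2 of its markers and a signed square-root Poisson deviance of at least 3 against the mean share of its library, if no other class reached 0.5 of that score. These thresholds were set after the data had been seen, and 284 to 750 cells per library scored between 3 and 4. Leiden clusters at a resolution of 1.0, made without the 7 genes, gave alternative classes.

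CPM have exact Poisson 95% intervals, ratios exact conditional binomial intervals and shares Clopper-Pearson intervals. UMIs were pooled over cells, so no interval covers the spread between cells or mice, and no p-value is given. A count of 0 was set to a floor of 3 UMIs in ratios. A call is a 2-fold difference. The ratio and its interval were run on simulated Poisson counts drawn from macrophage means. Such counts are not gathered in single cells, so the simulation checks the code and not how well the intervals hold for these data. The named genes are the 7 members, a list of pathway genes, class I and C1q genes, and the leading genes of cells singled out after their values were seen. The result of 1 gene of the pathway list, and the macrophage calls of that list, are not reported here. The members and lists were chosen with earlier results of these data known. Alternatives were clusters as classes, doublets kept, under 30% mitochondrial UMIs, at least 1000 UMIs per cell, the mean over cells of counts per 10000 and median-ratio scaling. For the C1qa ratio they also were C1qa, C1qb and C1qc summed and all kept cells as the source of RNA. Cells without leukocyte UMIs were a further setting. Few macrophages, at most 4 in a library, had fewer than 1000 UMIs, so that limit could change little in them. Python 3.11.15, scikit-learn 1.9.0, leidenalg 0.10.2, igraph 0.11.9, scipy 1.17.1, numpy 2.4.6, pandas 2.3.3 and matplotlib 3.10.9 were used.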

Additional observations from a re-analysis of the deposited data

Results flagged for a closer look

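In macrophages, H2-DMb1 had opposite signs under the same genotype contrast, with a log2 ratio of 0.40 for SP against WT on ND and −0.39 on HFD. The summed class II level had opposite signs in 3 tubule classes. In thin limb the HFD ratio was 1.89 in WT and −1.98 in SP, and the SP ratio was 2.32 on ND and −1.55 on HFD. In distal convoluted or connecting tubule the SP ratio was 0.60 on ND and −0.67 on HFD. In principal cells it was −0.49 on ND and 1.60 on HFD. None of these differences was tested, since each condition has 1 library. In thin limb 11 SP-ND cells held 86.2% of the class II UMIs of the class. In principal cells 3 SP-HFD cells held 74.9% of 467 UMIs, and 1 of them held 319. In distal convoluted or connecting tubule 8 WT-HFD cells held 54.1% and 2 SP-ND cells 27.3%. Without cells of 10 or more class II UMIs the sum of that class was 13.3, 31.4, 14.8 and 33.2 CPM. The SP-HFD sum was then no longer below that of WT-HFD. In principal cells the sum without such cells was 36.3, 47.8, 32.5 and 43.7 CPM, and SP-HFD was no longer above WT-HFD. In thin limb it was 38.2, 136, 63.6 and 46.3 CPM, and the signs stayed opposite. The SP difference by diet was then only that between 63.6 and 46.3 CPM. No interval was computed for these ratios, so whether they stay clear of 0 is not known. The thin limb label of the WT-HFD cells is also less certain, as described above.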

How the results depend on the processing

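Across the alternatives, 100 of 116 values of the summed log2 ratios kept their sign, and 52 moved beyond the counting interval. The cause of these moves was not tested. Values below are in the order WT-HFD against WT-ND, SP-HFD against SP-ND, SP-ND against WT-ND and SP-HFD against WT-HFD, or name the contrast. With classes set by clusters, macrophages gave 0.29, 0.0522, 0.35 and 0.11, and PT gave 2.40, 1.65, 0.36 and −0.38. B cells gave 0.66 for WT-HFD against WT-ND and −0.15 for SP-HFD against WT-HFD, and endothelium gave 0.56 and −1.09 for the same contrasts. With doublets kept, macrophages gave 0.52, 0.0782, 0.46 and 0.0106, B cells 0.46 for WT-HFD against WT-ND, endothelium 0.40 for WT-HFD against WT-ND, −0.11 for SP-ND against WT-ND and −0.69 for SP-HFD against WT-HFD, and PT 1.82 for WT-HFD against WT-ND and 0.41 for SP-HFD against WT-HFD. Under 30% mitochondrial UMIs, PT gave 2.42, −0.82, 2.26 and −0.98, and macrophages 0.44 for WT-HFD against WT-ND, 0.35 for SP-ND against WT-ND and 0.00224 for SP-HFD against WT-HFD. By the mean over cells, macrophages gave 0.14 for SP-HFD against SP-ND and 0.0812 for SP-HFD against WT-HFD, endothelium −0.15 for WT-HFD against WT-ND and 0.0206 for SP-ND against WT-ND, and PT 3.18 for WT-HFD against WT-ND, 1.47 for SP-ND against WT-ND and −1.21 for SP-HFD against WT-HFD. Median-ratio scaling gave 0.16 and 0.0745 for SP-HFD against SP-ND and against WT-HFD in macrophages, and 0.48 and 0.22 in B cells.

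The next settings were chosen after seeing the data. In cells with fewer than 10 class II UMIs, endothelium gave 0.23 for SP-ND against WT-ND and 0.44 for SP-HFD against WT-HFD, and PT gave 1.55 for WT-HFD against WT-ND, 0.48 for SP-ND against WT-ND and −0.46 for SP-HFD against WT-HFD. In cells with no leukocyte UMI, endothelium gave 0.24 for SP-HFD against WT-HFD, and PT gave 1.27 for WT-HFD against WT-ND, −1.06 for SP-HFD against SP-ND and −0.47 for SP-HFD against WT-HFD. Peritubular cells alone gave −0.86 for WT-HFD against WT-ND, −0.99 for SP-ND against WT-ND and −0.26 for SP-HFD against WT-HFD.

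Of 56 values of the class II to C1qa ratio relative to macrophages, 15 moved beyond the counting interval. With all kept cells as the source, PT was at 1.33 (0.959 to 1.91) in WT-HFD and 1.83 (1.21 to 2.91) in SP-HFD. With doublets kept, PT was at 1.52 in SP-HFD, 3.00 in SP-ND and 2.75 in WT-ND, and endothelium at 2.23 in WT-HFD. With clusters, PT was at 1.54 in SP-HFD, 2.097 in SP-ND and 10.6 in WT-HFD, and endothelium at 2.52 in WT-HFD. Without leukocyte UMIs, endothelium was at 43.0 in WT-ND and PT at 5.11 in WT-HFD. In cells with fewer than 10 class II UMIs, a setting chosen after seeing the data, endothelium was at 24.1 in WT-ND and PT at 3.22 in SP-ND and 1.74 in SP-HFD. No paired analysis was possible because each condition has 1 library, and no library could be left out. Depth limits Ciita, with 3 to 14 UMIs per library in B cells, endothelium and PT, and H2-DMb1 in B cells, with 3 to 11.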

Other observations

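Plasma cells held most of their class II UMIs in Cd74. In WT-ND, WT-HFD and SP-HFD they held 1531, 1543 and 1941 CPM of Cd74, or 82.0%, 82.5% and 86.6% of the sum, with H2-Eb1 at 145, 127 and 124 CPM, H2-Aa at 91.3, 101.9 and 89.8 CPM and Ciita at 0 UMIs in each. The SP-ND library had 1 such cell. Monocytes, 12 to 33 per library, had a class II sum of 5843, 4405, 8488 and 2533 CPM, below macrophages in every library. Neutrophils had 5641 and 1449 CPM in WT-ND and WT-HFD, where 2 cells of each library held 99.1% and 89.6% of the UMIs, and 52.4 and 40.4 CPM in SP-ND and SP-HFD.

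The 5 genes outside the group whose log2(CPM + 1) followed the class II sum most closely over 65 points, each a class in a library with at least 20 cells, were Ly86 (r = 0.92), Cd180 (0.90), Cd83 (0.90), Irf5 (0.89) and H2-Ob (0.88), among 5047 genes. The points of a library share its depth and free RNA, and the values are a description without a test. Over the same points Cd74 had r = 1.00 and H2-DMb1 0.86 with the sum that includes them.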
